A study of Mus musculus with 15 samples.

Results

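The genes of cholesterol and fatty acid synthesis were followed through mouse stomach development as 28 members, named one by one, in a sterol branch of 21 genes and a fatty acid branch of 7 genes. They are 28 of 44788 gene symbols in the tables, 27 of them found under the listed symbol and 1, Msmo1, under its older symbol Sc4mol. All 28 reached an FPKM (sequenced fragments scaled to transcript length and to library size, a level per length) of at least 1 in at least 1 library, as did 16902 symbols in all, and these 16902 were tested together. RNA of stomachs of C57BL/6 mice was sequenced at 15 ages with 1 library per age. The 7 fetal libraries were taken daily between embryonic days E12.5 and E18.5, 5 libraries at postnatal D1, D3, D5, W1 and W2 (days and weeks), and 3 libraries at W3, W6 and W8. No animal was treated or carried a named mutation. The methods of the study pool stomachs at the fetal ages up to E17.5 and take only males after W2. Sex and age therefore cannot be told apart between the W3 to W8 window and the earlier ones. Because no age was repeated, the ages of a window served as its replicates. Every SD, SE and p-value of a window or of a difference between windows measures the spread between ages, which includes change with age. The SE and p-value of a fetal slope measure the scatter of the ages around a straight line.

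Cholesterol is built from acetyl-CoA through mevalonate, isoprenoid diphosphates, squalene and lanosterol, and every dividing cell needs it for its membranes. The enzymes of this route are controlled together by SREBP-2, the product of Srebf2, which is released from the endoplasmic reticulum when sterol is scarce and is held there by SCAP and the INSIG proteins when sterol is plentiful. SREBP-1, the product of Srebf1, acts mainly on the fatty acid route, in which Acly makes cytosolic acetyl-CoA from citrate, Acaca makes malonyl-CoA, Fasn makes palmitate, and Elovl6 and the stearoyl-CoA desaturases Scd1 and Scd2 lengthen and desaturate it.

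The libraries differ in what fills them. The 10 highest genes took between 11.2% (E14.5) and 53.2% (W6) of the summed FPKM, and the median-ratio factor, which compares each library with the geometric mean of all 15, was between 1.27 at E14.5 and 0.570 at W6. On the scale log2(FPKM + 1), the median of all tested genes moved by -0.22 from the fetal to the D1 to W2 window. It moved by -0.42 from there to W3 to W8, and by -0.029 per fetal day. With scaling to a fixed sum that leaves out the 10 highest genes, the 3 values were -0.15, -0.38 and -0.044. Calls use limma with Benjamini-Hochberg adjustment over all 16902 genes and an adjusted p under 0.01. With values divided by the median-ratio factor, the share of calls that were higher went from 26.0% to 53.1% in the first of these comparisons, from 8.19% to 61.8% in the second and from 36.3% to 50.1% for the fetal slope. Where the call or the direction of a member differs with that scaling, this is given in place or in the closing sections. Atp4a, the proton pump subunit of the acid-secreting parietal cells of stomach, was between 4.29 (E13.5) and 3289 (W8) FPKM. 3 libraries stand apart in other tissues' markers. D1 had 461 FPKM of the hepatocyte gene Alb, where the other libraries had between 0.672 and 65.4. The sum of 9 hepatocyte markers did not set D1 apart, with 1605 FPKM at D1, 1528 at W3, 2403 at W6 and 2232 at W8. D3 had the highest sum of the 10 pancreatic acinar markers (168 FPKM). W8 nearly lacked forestomach squamous markers (sum of 9 genes 24.7 FPKM, against 2116 at W6).

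The sterol branch as a whole had a first high in the late fetal stomach and a second at W3. The summed FPKM of its 21 genes was 694 at E12.5, 652 at E13.5, 1169 at E17.5 and 1139 at E18.5. It was 813 at D1, 539 at W2, 949 at W3 and 652 at W6. Of the 21 genes, 4 had their highest library at E16.5, 9 at E17.5 and 4 at E18.5, whereas 6 had their lowest at W2, 5 at W6 and 5 at W8. The order of the highs depended on scaling, since after median-ratio scaling 11 of the 21 were highest at W3 and 9 were lowest at E13.5 and 9 at W2. The low at W2 and the high at W3 relative to their neighbours were there on either scale.

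**Figure D1:**
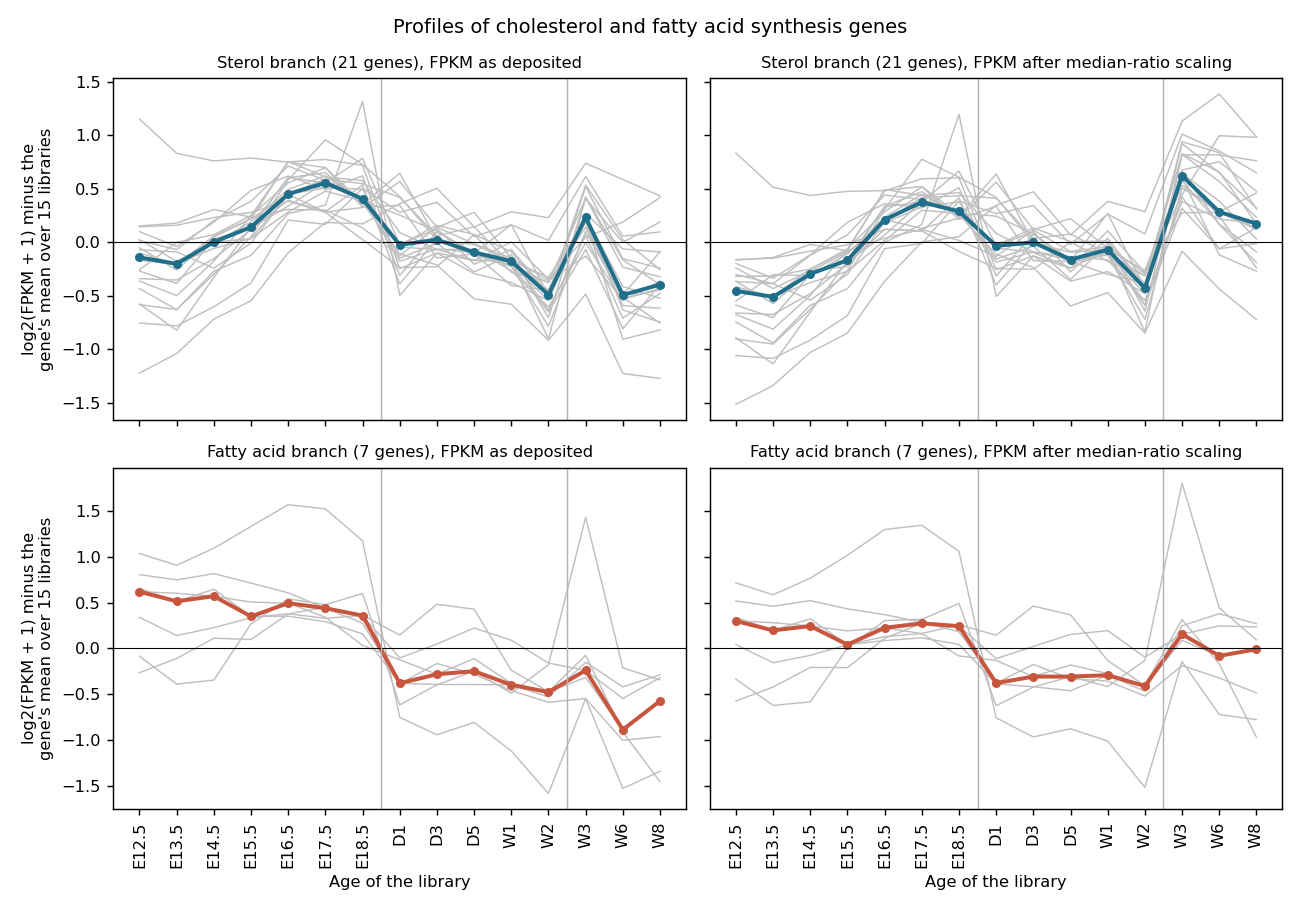
Each grey line is 1 gene, plotted as log2(FPKM + 1) minus the gene's own mean over the 15 libraries, by age from E12.5 to W8, and the coloured line is the median of the branch; vertical lines part the fetal, D1 to W2 and W3 to W8 windows. In the upper panels the sterol median stood at 0.56 at E17.5, -0.49 at W2 and 0.23 at W3 as deposited (left), and at 0.37, -0.43 and 0.62 after median-ratio scaling (right). In the lower panels the fatty acid median stepped from 0.36 at E18.5 to -0.38 at D1 as deposited.

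Within the fetal window, the sterol genes rose with embryonic day. A linear trend on embryonic day was called higher for 13 of 21 sterol members and lower for none, against 14.3% of all genes called higher and 25.0% called lower. After median-ratio scaling the count called higher was 17 and none was called lower, where 3065 of 16902 genes (18.1%) were called higher and 3049 lower. In the mevalonate part of the route, the steepest slope was that of Fdps, which makes farnesyl diphosphate, the last intermediate shared by cholesterol and the protein-anchoring isoprenoids. Fdps had 84.5 FPKM at E12.5, 81.9 at E13.5, 103 at E14.5, 132 at E15.5, 191 at E16.5, 248 at E17.5 and 211 at E18.5, a slope of 0.29 ± 0.038 (SE) on the log2 scale per day (adjusted p = 0.00108). The first 3 ages were the lowest and E17.5 the highest. Idi1, the isopentenyl diphosphate isomerase, rose by 0.24 ± 0.037 per day (adjusted p = 0.00198), from 23.6 FPKM at E13.5 to 58.4 at E17.5.

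Hmgcs1, the synthase of HMG-CoA, rose by 0.16 ± 0.021 per day (adjusted p = 0.00107), and Mvd, the decarboxylase that closes the mevalonate steps, by 0.12 ± 0.020 (adjusted p = 0.00263). The kinases Mvk (0.10 ± 0.031, adjusted p = 0.0274) and Pmvk (0.13 ± 0.034, adjusted p = 0.0163) did not pass as deposited and did after median-ratio scaling (adjusted p = 0.00842 and 0.00606). Acat2, the cytosolic thiolase that makes acetoacetyl-CoA, stood apart with a slope of -0.094 ± 0.022 (adjusted p = 0.0105). Its highest library was the first, with 82.9 FPKM at E12.5, and the fetal median was 63.0 FPKM. The span of Acat2 is 17684 bases, of which 17351 overlap the entry of its near-identical neighbour Acat3, so fragments may be split between the pair.

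Of the enzymes between farnesyl diphosphate and lanosterol, Fdft1, the squalene synthase, rose by 0.15 ± 0.026 per day (adjusted p = 0.00285), and Lss, the lanosterol synthase that closes the ring system, by 0.16 ± 0.032 (adjusted p = 0.00492). Sqle, the squalene epoxidase, had a slope of 0.11 ± 0.032 (adjusted p = 0.0278) and was highest at E16.5 with 76.7 FPKM. It passed after median-ratio scaling (adjusted p = 0.00617). Fdft1 shares 774 bases with Ctsb, whose level reached 190 FPKM, and the strand used in counting is not given in the sources used here.

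Of the enzymes from lanosterol to cholesterol, Msmo1, the methylsterol oxidase, had 33.1 FPKM at E12.5, 27.8 at E13.5, 39.5 at E14.5, 55.1 at E15.5, 76.3 at E16.5, 73.8 at E17.5 and 86.6 at E18.5. This is a slope of 0.28 ± 0.038 per day (adjusted p = 0.00123), with the last 3 ages above all earlier ones. Ebp, the sterol isomerase, had 8.36 FPKM at E12.5 and a higher value at each age up to 23.9 at E17.5, followed by 23.6 at E18.5 (0.26 ± 0.021 per day, adjusted p = 0.00027). Sc5d, a sterol desaturase, rose by 0.23 ± 0.028 (adjusted p = 0.000824), Cyp51, the lanosterol demethylase, by 0.13 ± 0.024 (adjusted p = 0.00415), and Nsdhl, which removes the methyl groups oxidised by Msmo1, by 0.13 ± 0.027 (adjusted p = 0.00638). Tm7sf2 (0.14 ± 0.033, adjusted p = 0.0103) and Hsd17b7 (0.081 ± 0.026, adjusted p = 0.0362), both reductases, had positive slopes that did not pass, and that of Tm7sf2 passed after median-ratio scaling (adjusted p = 0.00712). Tm7sf2 shares 9 bases with Vps51. Dhcr7, the reductase of the last step of one arm of the route, had a slope of 0.0011 ± 0.023 (adjusted p = 0.977), the nearest to 0 of all 28 members, and a fetal level of 20.1 ± 1.7 FPKM (SD, n = 7).

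Of the 3 regulators in the sterol branch, Srebf2 had a slope of 0.0067 ± 0.017 (adjusted p = 0.765), with fetal values from 63.1 to 71.3 FPKM. After median-ratio scaling its slope was 0.041 ± 0.014 (adjusted p = 0.0443), which did not pass. Insig1, which holds SREBP precursors in the endoplasmic reticulum and is itself a target of SREBP, rose by 0.28 ± 0.049 per day (adjusted p = 0.00328). Stard4, a cytosolic sterol carrier, rose by 0.11 ± 0.025 (adjusted p = 0.00864), with its lowest fetal value of 12.3 FPKM at E13.5. Leaving out 1 fetal library at a time, Hmgcs1, Idi1, Fdps, Msmo1, Ebp and Sc5d were called in all 7 fits. The count of 13 fell to 8 without E13.5. Stard4 was called in none of the 7 fits, Nsdhl only without E18.5, and Lss only without E16.5 or E18.5. While the sterol genes rose, the summed level of 9 markers of dividing cells went from 618 FPKM at E12.5 to 300 at E18.5, and the sums of 11 glandular epithelial and 8 smooth muscle markers went from 399 to 7360 and from 1302 to 6727 FPKM. The sum of 9 forestomach squamous markers went from 61.4 FPKM at E12.5 to 10586 at E17.5, the age of the highest sterol sum as deposited too, and 9901 at E18.5. On either scale 7 of the 9 were called higher over the fetal days, where 14.3% of all genes were (18.1% after median-ratio scaling). Whether the make-up of the tissue takes part in the rise was not tested, and in whole-organ RNA more cells of a type and more RNA per cell cannot be told apart.

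Promoter sequences from RefSeq (GRCm38.p6) were found for 22 of the 28 members, and the 250 bases before each start were read for short motifs on both strands. The letters TCACNCCAC, a form of the element that SREBP binds, were found in 1 of the 27 promoters of these members, that of Hmgcs1, and in 1.05% of all 32851 promoters. CCAAT, the letters bound by the factor NF-Y, were in at least 1 promoter of 16 of 17 sterol members and of 2 of 5 fatty acid members, or in 19 of 27 promoters, and in 33.8% of all promoters and 34.5% of the promoters of the tested genes. GGGCGG, bound by Sp1, was in 20 of 27 promoters, against 32.7% of all and 54.2% of those of tested genes, and CACGTG in 4 of 27 against 6.02% and 7.74%. Matches overlapped each other in 1 promoter, that of Fasn, where CCAAT is read on both strands of the same 8 letters. A match of letters is not a site. Shown are Hmgcs1, which carries the sterol element, and, chosen after the matches had been seen, Mvk with the most CCAAT matches (5), Msmo1 with 3 in the same direction and Fasn as the fatty acid gene with the most (3). Each runs 5′ to 3′ in the direction of the gene and ends at the base before the start, with TCACNCCAC and CCAAT (or ATTGG, its reverse) in capitals. They lie at chr13:119690101-119690350 (+) for Hmgcs1, chr5:114444019-114444268 (+) for Mvk, chr8:64733579-64733828 (-) for Msmo1 and chr11:120824548-120824797 (-) for Fasn.
Hmgcs1: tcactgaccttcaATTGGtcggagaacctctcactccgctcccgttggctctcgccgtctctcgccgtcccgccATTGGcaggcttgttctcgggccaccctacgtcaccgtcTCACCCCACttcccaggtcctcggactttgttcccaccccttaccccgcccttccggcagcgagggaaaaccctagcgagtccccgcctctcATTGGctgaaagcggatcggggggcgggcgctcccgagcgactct
Mvk: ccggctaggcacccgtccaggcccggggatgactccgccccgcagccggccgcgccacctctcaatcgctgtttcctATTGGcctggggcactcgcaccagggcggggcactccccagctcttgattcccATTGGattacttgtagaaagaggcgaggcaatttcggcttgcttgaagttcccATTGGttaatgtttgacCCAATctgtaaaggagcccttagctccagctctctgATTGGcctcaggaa
Msmo1: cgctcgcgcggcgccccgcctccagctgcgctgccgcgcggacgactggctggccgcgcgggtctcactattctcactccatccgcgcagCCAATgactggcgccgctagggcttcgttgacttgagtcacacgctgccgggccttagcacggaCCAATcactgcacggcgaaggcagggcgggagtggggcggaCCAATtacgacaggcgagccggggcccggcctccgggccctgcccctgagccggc
Fasn: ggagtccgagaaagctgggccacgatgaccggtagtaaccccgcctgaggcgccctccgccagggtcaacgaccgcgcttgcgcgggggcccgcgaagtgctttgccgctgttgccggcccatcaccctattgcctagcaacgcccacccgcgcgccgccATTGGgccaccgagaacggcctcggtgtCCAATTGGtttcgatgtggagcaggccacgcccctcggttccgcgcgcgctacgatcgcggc

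Between the fetal and the D1 to W2 window, the sterol branch as a whole changed little beyond the shift of all genes. Its median log2 change was -0.29, against -0.22 for all genes tested, and 5 of 21 members were called lower and none higher, where 30.6% of all genes were called lower and 10.8% higher. After median-ratio scaling the median was -0.019, with Acat2 called lower and Ebp called higher. On that scale 15.0% of all genes were called lower and 17.0% higher. At an unadjusted p under 0.05, 9 sterol members were lower and 1 higher as deposited. The shares of all genes under that limit were not counted, but are at least the 30.6% and 10.8% called. The fall was clearest in Acat2, with fetal values of 47.8 (lowest), 63.0 (median) and 82.9 FPKM (highest). Its later values were 34.0 at D1, 31.6 at D3, 25.2 at D5, 24.3 at W1 and 19.0 at W2, all below every fetal value. How common such a separation was among all genes was not counted. The log2 change of Acat2 was -1.23 ± 0.17 (adjusted p = 0.000168), which is -1.01 relative to the median gene. Sqle (-0.59 ± 0.17, adjusted p = 0.00865), Stard4 (-0.59 ± 0.16, adjusted p = 0.00749), Dhcr7 (-0.42 ± 0.11, adjusted p = 0.00549) and Srebf2 (-0.33 ± 0.096, adjusted p = 0.00926) were called lower as deposited, and after median-ratio scaling their adjusted p were 0.125, 0.098, 0.118 and 0.586.

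The calls other than that of Acat2 also rested on single ages. The count of 5 fell to 1 without E14.5, E15.5, E16.5, D1, W1 or W2, to 2 without E17.5 or D5, and to 3 without E18.5, D3 or W8. Acat2 was called in all 15 of these fits. Ebp went the other way, with fetal values of 8.36 (lowest), 14.0 (median) and 23.9 FPKM (highest) and later values of 27.1 at D1, 30.0 at D3, 23.2 at D5, 25.6 at W1 and 24.6 at W2. The D5 value lay within the fetal range and the other 4 above it, and the change of 0.77 ± 0.23 had an adjusted p of 0.010, just outside the threshold as deposited, and of 0.00441 after median-ratio scaling. Sc5d, the enzyme that follows Ebp, changed by 0.41 ± 0.22 (adjusted p = 0.118). These 2 genes are the only sterol members with a positive change as deposited, and both were highest of all ages at W3 on that scale, with 35.5 FPKM each. After median-ratio scaling Sc5d was still highest at W3, and Ebp was highest at W6 (55.9, against 46.7 at W3). The remaining 14 sterol members had changes between -0.52 (Idi1) and -0.094 (Hsd17b7), with Mvk at -0.42, Pmvk at -0.19, Mvd at -0.13, Fdps at -0.25, Fdft1 at -0.30, Lss at -0.45, Cyp51 at -0.45, Tm7sf2 at -0.19, Msmo1 at -0.18, Nsdhl at -0.28, Insig1 at -0.29 and Hmgcs1 at -0.28, none of them called.

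**Figure D2:**
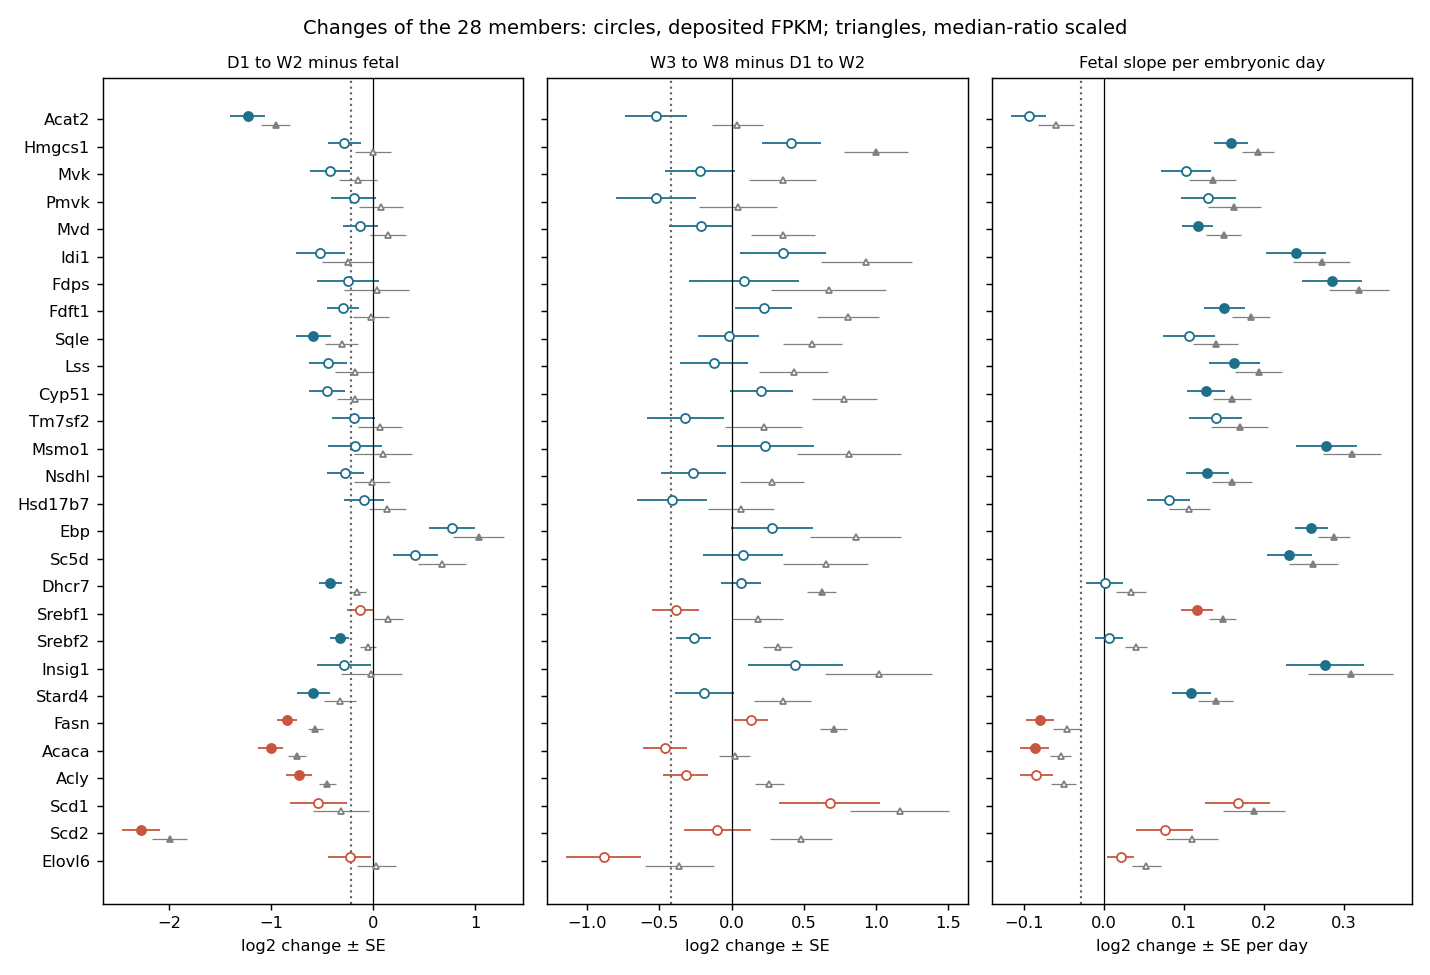
Log2 change with its SE for each of the 28 members from the fetal to the D1 to W2 window, from there to W3 to W8, and per embryonic day within the fetal window. Circles are deposited FPKM (blue sterol, red fatty acid) and grey triangles median-ratio scaled values, filled where the adjusted p was under 0.01, and the dotted line is the median of all genes as deposited. Scd2 lies farthest to the left in the first panel at -2.28, no circle is filled in the second, and Fdps lies farthest to the right in the third at 0.29.

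A window mean hides what happened at its edge. From the last fetal library to the first after birth, 11 of 21 sterol members and 5 of 7 fatty acid members were lower by at least 1.3-fold in FPKM + 1 and none was higher by that much, where 16.9% of all genes were lower and 13.0% higher by that fold. This step and the one at W3 were picked after the values had been seen, each sets 1 library against 1 other, and no test can be given. The fold of 1.3 compares with authors' confidence bounds whose half-width was 6.01% of the value at the median of 420 member values and 15.0% at most, and these bounds cover counting error only. They lay apart for 15 sterol members that were lower at D1 and for 2 that were higher, and overlapped for 4. How often the bounds of all genes lay apart was not counted. Insig1 was at 79.5 FPKM at E18.5 and 21.9 at D1, a ratio of 0.275. Idi1 had a ratio of 0.503 (56.2 and 28.3 FPKM), Hmgcs1 of 0.523 (128 and 66.7), Msmo1 of 0.566 (86.6 and 49.0) and Cyp51 of 0.631 (42.1 and 26.5), and Stard4 was among the 11 too. Pmvk (37.9 and 46.6) and Hsd17b7 (6.58 and 7.97) were higher at D1, and the bounds overlapped for Mvk (45.9 and 46.4), Mvd (39.2 and 35.6), Tm7sf2 (ratio 0.911) and Ebp (23.6 and 27.1). After median-ratio scaling, 8 sterol and 4 fatty acid members were lower by that fold (10.8% of all genes) and 1, Pmvk, was higher (16.9% of all genes).

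D1 is the library with the most Alb, so the step was also read with D3 in its place. From E18.5 to D3, 13 sterol and 4 fatty acid members were lower by that fold (13 and 3 after median-ratio scaling), where 12.9% of all genes were (8.05% after scaling). With D1 kept and E17.5 in place of E18.5, 14 and 6 were lower at D1 (10 and 5 after scaling), where 22.3% of all genes were (12.4% after scaling). All 9 hepatocyte markers were higher at D1 than at E18.5 (sum 1605 against 261 FPKM), while at D3 their sum was 377. All 9 markers of dividing cells were lower at D1 (144 against 300 FPKM). Their part in the step was not tested.

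At W3, almost the whole sterol branch stood above W2. All 21 members were higher, with bounds that did not overlap, and 20 of them by at least 1.3-fold, where 6.54% of all genes were higher and 32.4% lower by that fold. For bounds that did not overlap, the share of all genes was not counted. The median ratio of W3 to W2 was 1.66. Fdps was at 67.5 FPKM at W2 and 171 at W3, Cyp51 at 17.7 and 39.8, Idi1 at 22.8 and 48.8, Msmo1 at 35.6 and 72.8, and Sqle at 26.5 with a ratio of 1.89. Srebf2, at 44.6 and 52.4, had the smallest ratio (1.18) and was the 1 member under the fold. The step as deposited depended on both of its libraries. From W1 to W3, 11 of 21 were higher by that fold (11.1% of all genes), and from W2 to W6, 6 of 21 (4.67% of all genes). After median-ratio scaling, 21 were higher by it from W2 to W3 (17.9% of all genes), 18 from W1 to W3 (22.1%) and 20 from W2 to W6 (25.2%). At W3, 8 of 9 hepatocyte markers were higher than at W2 (Alb 65.4 against 1.81 FPKM, sum 1528 against 638), as were 10 of 11 glandular markers (sum 221866 against 76014 FPKM). Of 8 smooth muscle markers 7 were higher (sum 7886 against 4395 FPKM, and 7220 at W1), and of 6 erythroid markers 5 (658 against 298 FPKM). The part of these tissues in the step was not tested. W3 is also the first age at which only males were taken, so sex and age cannot be told apart in this step.

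**Figure D3:**
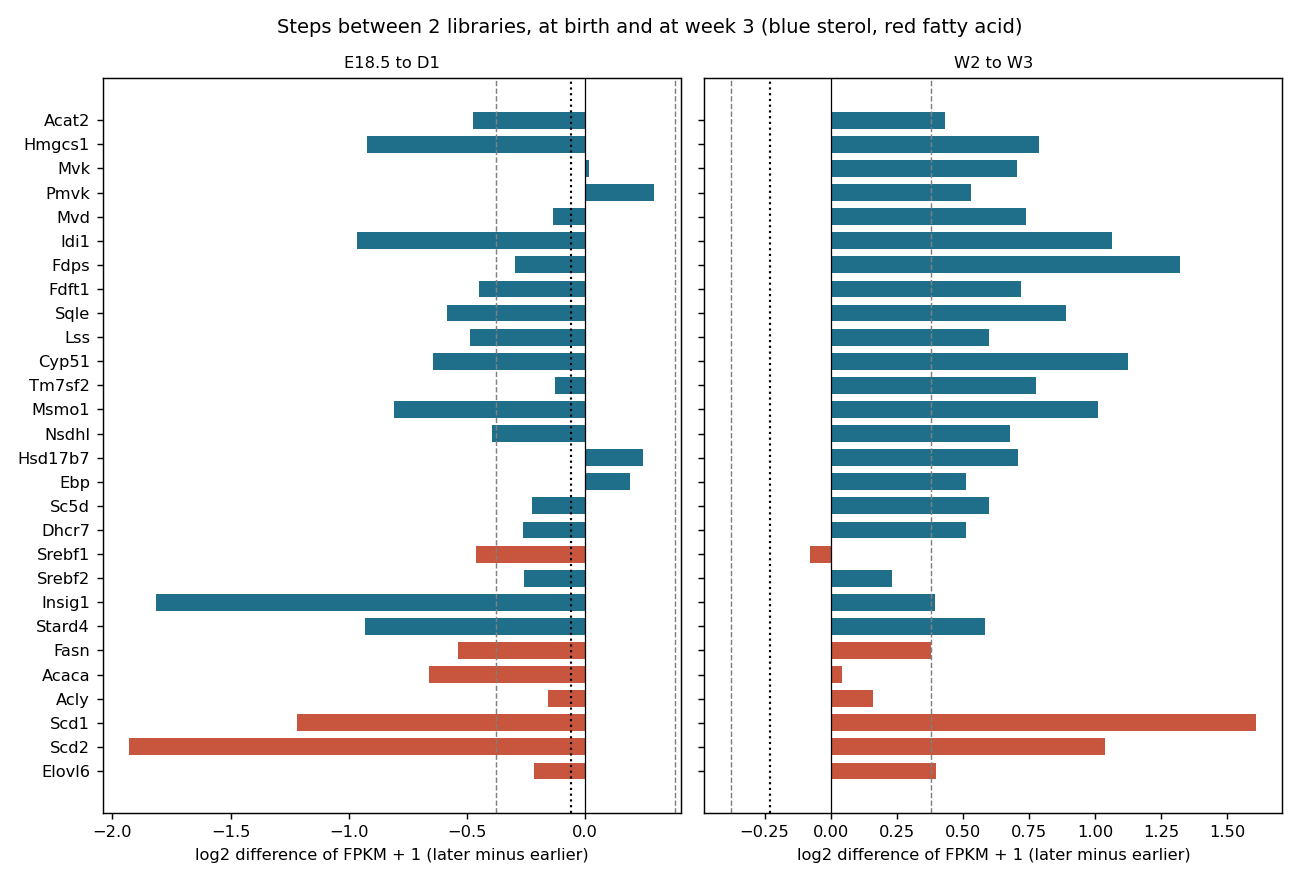
Bars give the log2 difference of FPKM + 1, later minus earlier library, for each member from E18.5 to D1 and from W2 to W3, each from 1 library against 1 (no error can be given). Dashed lines mark 1.3-fold and the dotted line the median of all genes. On the left 24 of the 28 bars point to lower values at D1, with Scd2 and Insig1 the longest, and on the right 27 of 28 point to higher values at W3, with Scd1 the longest.

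Over the whole W3 to W8 window, the level of the sterol branch as deposited was close to that of the window before. No sterol member was called by limma in either direction (2.57% of all genes were called higher and 28.9% lower). At an unadjusted p under 0.05 none was higher and 2 were lower, Acat2 and Srebf2. The share of all genes under that limit was not counted. limma with a mean-dependent prior also called none. The median change was -0.020 against -0.42 for all genes. After median-ratio scaling all 21 changes were positive, with a median of 0.56 against -0.017 for all genes, and Hmgcs1 (1.0 ± 0.22, adjusted p = 0.0035) and Dhcr7 (0.62 ± 0.10, adjusted p = 0.000607) were called higher, where 2112 of 16902 genes were. Hmgcs1 had 66.7 FPKM at D1, 89.9 at D3, 80.6 at D5, 75.6 at W1 and 67.3 at W2, and then 117 at W3, 87.7 at W6 and 100.3 at W8. Its W6 value lay inside the range of the earlier window and the other 2 above it. In the F test across the 3 windows, 6 of 21 sterol and 5 of 7 fatty acid members were called, against 67.9% of all genes. After median-ratio scaling the counts were 6 and 4, and the share of all genes on that scale was not counted.

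In the fatty acid branch, most of the core enzymes fell between the fetal and the D1 to W2 window. The summed FPKM of its 7 genes was between 341 and 438 in the fetal libraries, 170 at D1 and between 128 and 179 up to W2. Much of this sum and of its fall was Scd2, which alone had between 158 and 251 FPKM in the fetal libraries and 49.3 at D1. Of the 7, 4 were called lower (Scd2, Acaca, Fasn and Acly) and none higher, where 30.6% of all genes were called lower. The same 4 were called after median-ratio scaling, where 15.0% of all genes were. The median change of the branch was -0.73 against -0.22 for all genes, and -0.45 against 0.00083 after median-ratio scaling. Fasn, the fatty acid synthase, had fetal values of 33.6 (lowest), 38.6 (median) and 47.8 FPKM (highest), and then 22.8 at D1, 22.6 at D3, 22.6 at D5, 22.5 at W1 and 20.4 at W2. The 5 postnatal values were nearly flat and all below the fetal ones, and the change was -0.84 ± 0.097 (adjusted p = 8.54e-05). Acaca, the cytosolic acetyl-CoA carboxylase, fell by 1.01 ± 0.12 on the log2 scale (adjusted p = 9.56e-05), from a fetal median of 12.8 FPKM to 5.43. Acly, the citrate lyase, changed by -0.73 ± 0.13 (adjusted p = 0.000453), from a fetal median of 79.1 FPKM to 45.4. In each of these genes the fetal and the D1 to W2 windows did not overlap, and each was called in all 15 fits that left out 1 library. How many of all genes had these windows apart was not counted.

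Before birth, the fetal slopes of Acaca, Fasn and Acly were -0.087 ± 0.018 (adjusted p = 0.00673), -0.080 ± 0.017 (adjusted p = 0.00708) and -0.084 ± 0.021 per day (adjusted p = 0.0126). After median-ratio scaling the slopes were -0.054, -0.046 and -0.050 and none passed, and without any 1 fetal library at most 1 of the 2 calls as deposited was left, that of Fasn without E14.5. Markers of dividing cells moved the same way, with 7 of 9 called lower over the fetal days and all 9 from the fetal to the D1 to W2 window, and their part was not tested. Srebf1, the regulator, rose over the fetal days by 0.12 ± 0.020 per day (adjusted p = 0.00276), from 22.1 FPKM at E12.5 to 37.0 at E17.5. It shares 107 bases with Rai1 and changed by -0.13 ± 0.13 to the D1 to W2 window (adjusted p = 0.411). Elovl6 was at 16.3 ± 1.0 FPKM (SD, n = 7) in the fetal window, between 9.11 (W2) and 18.6 (D3) FPKM in the next window, and at 12.3 at W3, 6.44 at W6 and 4.11 at W8. Its change into the last window was -0.89 ± 0.26 (adjusted p = 0.012), and it was not called.

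From the D1 to W2 to the W3 to W8 window, no fatty acid member was called by limma as deposited. At an unadjusted p under 0.05 none was higher and 3 were lower, and the share of all genes under that limit was not counted. Of these 3, Acaca (-0.46 ± 0.15, adjusted p = 0.02) and Elovl6 were called lower with W3 left out or in the RNA phases of the study. Those phases count E18.5 with the middle window. Elovl6 was also called lower with W2 left out. After median-ratio scaling Fasn was called higher (0.71 ± 0.093, adjusted p = 0.000206) and the change of Acaca was 0.020. Acly changed by -0.32 ± 0.16 as deposited and by 0.26 after that scaling, and Srebf1 by -0.39 ± 0.16 and 0.18, so no direction can be given for either.

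The desaturases differed from each other. Scd2, a desaturase prominent in brain and in young animals, had fetal values of 158 (lowest), 191 (median) and 251 FPKM (highest). It was at 49.3 FPKM at D1, 43.0 at D3, 47.4 at D5, 38.0 at W1 and 27.2 at W2, and at 56.9 at W3, 28.3 at W6 and 32.4 at W8. All 8 postnatal values lay below every fetal one, and how many of all genes did the same was not counted. The log2 change of -2.28 ± 0.19 (adjusted p = 1.83e-05) was below that of all but 0.142% of the tested genes, and it was -2.0 after median-ratio scaling. Scd1, the main desaturase of liver and fat, was low throughout, between 2.59 and 6.14 FPKM in the fetal window and 2.07 at D1, 2.57 at D3, 2.96 at D5, 2.35 at W1 and 3.16 at W2. It stood at 11.7 FPKM at W3 alone, and was back at 3.06 at W6 and 2.71 at W8. Its window changes were -0.54 ± 0.28 (adjusted p = 0.108) and 0.68 ± 0.35 (adjusted p = 0.112), and its fetal slope 0.17 ± 0.041 (adjusted p = 0.0119), which passed after median-ratio scaling (adjusted p = 0.00682). The high at W3 is 1 library. Of 9 fat cell markers, 5 were higher and 4 lower at W3 than at W2, with a sum of 208 FPKM at both ages, most of it Fabp4 (175 and 168). Cfd went from 5.96 to 11.2 FPKM, Retn from 2.59 to 5.73 and Adipoq was at 2.17 at both. The part of fat or liver RNA in the high of Scd1 was not tested.

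The ratio of the 2 desaturases within a library depends on scaling only through the 1 added to each FPKM. The mean log2 ratio of Scd1 to Scd2, on FPKM + 1, was -5.25 ± 0.27 (SD, n = 7) in the fetal, -3.51 ± 0.46 (n = 5) in the D1 to W2 and -2.74 ± 0.50 (n = 3) in the W3 to W8 window. The first difference of 1.74 had p = 0.00253 in an exact two-sided permutation test, the smallest that 7 against 5 libraries allow, and p = 0.0152 after adjustment over 6 ratio tests. The second of 0.78 had p = 0.107 (exact permutation test, adjusted p = 0.17), where 5 against 3 libraries allow no less than 0.0357. In FPKM with nothing added, Scd2 was 66.6 times Scd1 at E14.5, 31.0 times at E18.5, 23.8 times at D1 and 4.86 times at W3.

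**Figure D4:**
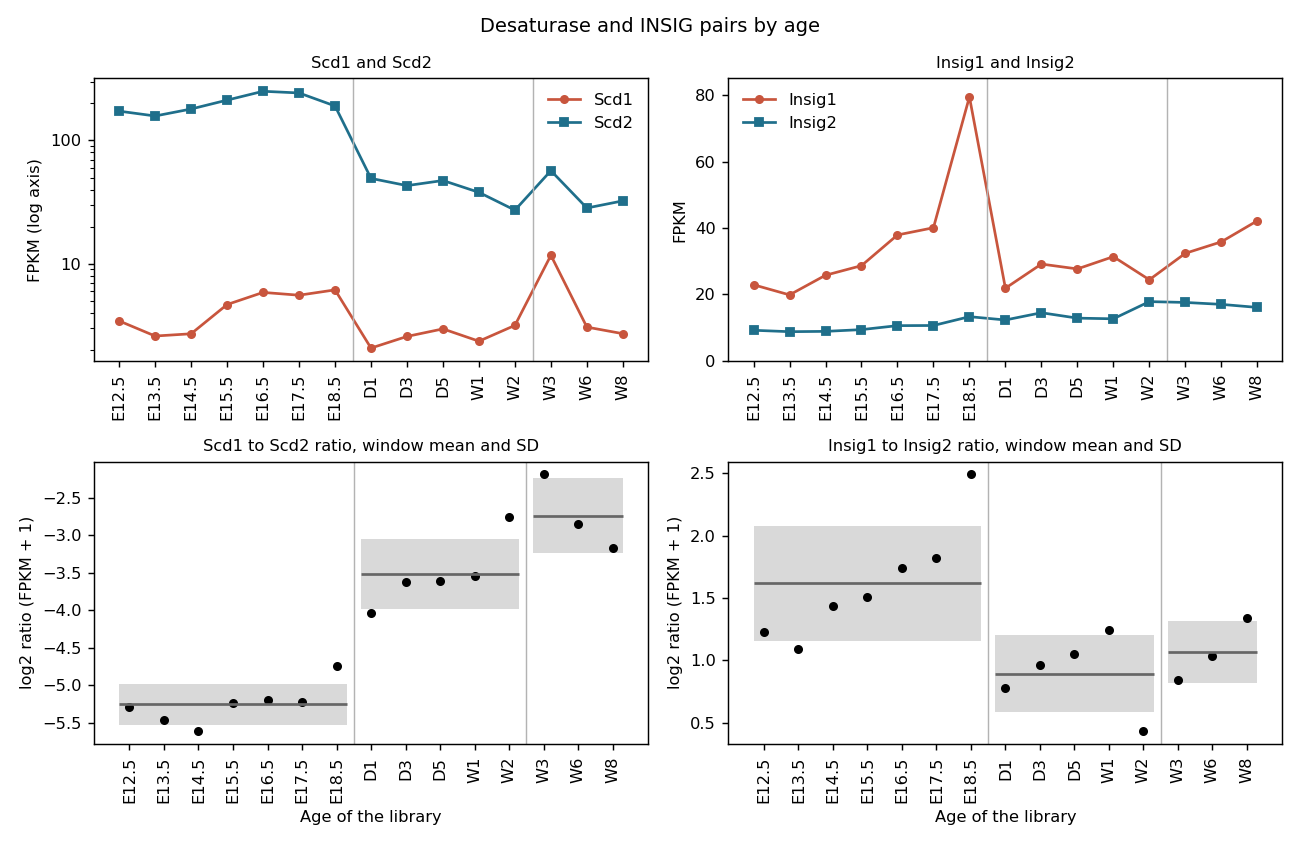
Upper panels show FPKM by age for Scd1 and Scd2 (log axis) and for Insig1 and Insig2. Lower panels show the log2 ratio of FPKM + 1 of each pair in each library as points, with the mean of each window as a line and its SD as a band; vertical lines part the windows. The Scd1 to Scd2 ratio was -4.75 in the highest fetal library and -4.03 in the lowest of D1 to W2, and Insig1 reached 79.5 FPKM at E18.5.

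Of the regulators, Srebf1 and Srebf2 had a mean log2 ratio of -1.16 ± 0.24 (n = 7), -0.95 ± 0.15 (n = 5) and -1.08 ± 0.11 (n = 3), in the same order of windows, and neither difference passed (exact permutation tests, adjusted p = 0.17 and 0.257). Insig1 had fetal values of 22.9, 19.9, 25.8, 28.7, 37.9, 40.1 and 79.5 FPKM in order of age. It was then 21.9 at D1, 29.1 at D3, 27.7 at D5, 31.4 at W1 and 24.4 at W2. It was 32.4 at W3, 35.8 at W6 and 42.2 at W8. Insig2, its relative that sterol does not induce, went from 9.22 FPKM at E12.5 to 13.3 at E18.5 and 17.8 at W2, and was called higher in the D1 to W2 window (0.43 ± 0.11, adjusted p = 0.00498). The mean log2 ratio of Insig1 to Insig2 was 1.62 ± 0.46 (n = 7) in the fetal and 0.89 ± 0.31 (n = 5) in the D1 to W2 window (exact permutation test, p = 0.00758, adjusted p = 0.0227). With E18.5 counted in the middle window the difference of -0.72 became -0.31 and did not pass (adjusted p = 0.421), and without D1, D3, D5 or W2 it did not pass at 0.05.

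The other genes of these pathways were read from 6 lists. The shares of all genes that their counts stand beside are, as deposited, 10.8% higher and 30.6% lower from the fetal to the D1 to W2 window and 2.57% and 28.9% from there to W3 to W8, and after median-ratio scaling 17.0% and 15.0% and then 2112 and 1305 of 16902 genes. Among 11 genes of sterol sensing and control, 4 were called higher and 2 lower from the fetal to the D1 to W2 window (5 and 0 after median-ratio scaling). Nr1h3, the sterol receptor LXR-alpha, rose by 0.81 ± 0.13 and Scap, the SREBP escort, by 0.44 ± 0.078, both also after that scaling. Nr1h3 was low throughout, between 0.402 FPKM at E13.5 and 2.62 at D1. The proteases that release SREBP, Mbtps1 (-0.64 ± 0.16) and Mbtps2 (-0.47 ± 0.094), were called lower only as deposited. Into the W3 to W8 window none was called higher and 4 lower (2 and 1 after scaling), with Mylip, a ligase that acts on lipoprotein receptors, at -1.17 ± 0.17 and lower on both scales. Of 12 genes of sterol uptake, transport and export, Soat1, which esterifies cholesterol (-0.70 ± 0.17), and the sterol transporter Gramd1a (-0.80 ± 0.22) were called lower in the D1 to W2 window as deposited (1 higher and none lower after scaling). In the last window Abca1, a sterol exporter, was called lower as deposited (-0.72 ± 0.13) and none higher. Abca1 was low throughout, between 0.546 FPKM at W6 and 2.89 at E14.5. After scaling none was called lower and 3 higher, Soat1 (1.03), Stard3 (0.50) and Osbp (0.51). Of 8 genes of the isoprenoid branch, which leaves the route at farnesyl diphosphate, 2 were called lower in each contrast between windows as deposited (none in the first, and 2 higher and 1 lower in the second, after scaling). Fntb, a subunit of farnesyltransferase, was among them in both (-0.58 ± 0.15 and -1.14 ± 0.18), and the second call held after scaling.

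Genes around fatty acid synthesis were called in both directions. Of 12 tested genes of fatty acid supply and activation, 4 were called higher and 2 lower in the D1 to W2 window (6 and 0 after scaling), and 8 rose over the fetal days (9 after scaling). Of all genes, 10.8% were called higher and 30.6% lower in that window (17.0% and 15.0% after scaling), and 14.3% higher over the fetal days (18.1% after scaling). Me1, the malic enzyme that supplies NADPH, rose by 2.62 ± 0.58 into the D1 to W2 window, Acsl1, an acyl-CoA synthetase, by 1.32 ± 0.29, and Acacb, the carboxylase at the mitochondrion, by 1.48 ± 0.22 and by a further 1.47 ± 0.27 into the W3 to W8 window. Acacb reached 18.1 FPKM, while Acaca went from 13.8 FPKM at E14.5 to 3.19 at W6. Of 13 tested genes of elongation and desaturation, 1 was called higher and 3 lower (2 and 2 after scaling). The desaturases of polyunsaturated fatty acids were both lower, Fads2 by -1.30 ± 0.27 and Fads1 by -1.06 ± 0.23 on the log2 scale, and both were again called lower in the last window as deposited (-1.31 ± 0.33 and -1.28 ± 0.28) but not after scaling (adjusted p = 0.0494 and 0.0292). Of 13 genes of glycerolipid synthesis, 5 were called higher and 1 lower (6 and 0 after scaling). Dgat2, which makes triglyceride, rose by 2.24 ± 0.61 and Mogat1, a monoacylglycerol acyltransferase, by 2.18 ± 0.57 and then by 4.37 ± 0.71 into W3 to W8, where it reached 161 FPKM. All of these calls had an adjusted p under the threshold in limma's test over all genes.

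Within the branches, the members were unlike in how closely they followed the rest. Pearson's r over the 15 libraries between log2(FPKM + 1) of a sterol enzyme and the mean standardized profile of the other sterol enzymes was highest for Lss (0.942), Cyp51 (0.922), Fdps (0.921) and Nsdhl (0.914). It was 0.681 for Hmgcs1, 0.565 for Dhcr7, 0.437 for Acat2, 0.386 for Sc5d and 0.0557 for Ebp. Acat2 had an r of 0.959 with the mean of the 6 fatty acid enzymes, with which Ebp had -0.68. Among 9830 other genes that reached 10 FPKM, the 10 most like the mean of the 18 sterol enzymes had r between 0.841 and 0.894. They were Aacs, a cytosolic synthetase of acetoacetyl-CoA, Lactb, Pgp, LOC102635781, Pnp, Arfip1, Zdhhc5, Pradc1, Aldoc and Emp1. Aacs went from 16.2 FPKM at E12.5 to 36.9 at E17.5. The 10 most like the mean of the 6 fatty acid enzymes were Hk2 (0.971), a hexokinase, Ywhab, Cdc42, Rala, Tfg, Vrk2, Ywhaz, Net1, Capza1 and Tpm4 (0.956). These values describe 15 libraries that share their scaling and their trend with age.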

How the data were processed

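The authors deposited 1 table of FPKM values per library, with lower and upper confidence bounds for each gene entry. The methods of the study and the labels differ on how they were made: the labels' processing notes name Bowtie 0.12.2, FastQC and the build GRCm38.p2, the methods name another aligner and quantifier, and the tables have the layout of Cufflinks. The methods also name liver as the source of the RNA, where the labels and markers give stomach. Read depth per library is not given in the sources used here, and the confidence bounds cover counting error only.

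Entries that share a symbol were added up. Genes reaching an FPKM of 1 in any library were tested on log2(FPKM + 1), a scale that understates changes of low genes, with limma 3.58.1 in R 4.3.3, in 1 fit with 3 windows drawn from the age labels and in a linear trend over the 7 fetal libraries, with Benjamini-Hochberg adjustment over all genes and a threshold of 0.01. Ratios were tested with exact two-sided permutation tests (SciPy 1.17.1), adjusted over 6 tests. The fits were tested on simulated data. Alternatives were scaling to a fixed sum that leaves out the 10 highest genes, scaling by median ratios, quantile normalization, a pseudocount of 0.1, a limit of 5 FPKM or none, the first entry of a symbol only, a mean-dependent prior, the RNA phases of the study, and leaving out each library. The members and lists were chosen with earlier results of these data known. Of each pathway list, at most 4 called genes with the largest change per contrast could be named, and Insig2, Stard3, Osbp, Alb, Atp4a, 4 fat cell markers and the overlapping neighbours were named for the results that turn on them. Some genes of the pathways are not reported here. Promoters are those of RefSeq, and proteins were not used here.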

Additional observations from a re-analysis of the deposited data

Results flagged for a closer look

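In 4 of 56 groups of 5 or 7 libraries tested, 1 member's library lay farther from the others than Dixon's 95% limit allows, and chance alone flags about 1 group in 20. Insig1 at E18.5 (79.5 FPKM) was far above the next fetal library (40.1 FPKM at E17.5). Pmvk at D1 (46.6 FPKM) was above the other libraries of D1 to W2, the next of which had 29.9 FPKM. At W2, Sqle (26.5 FPKM) and Fasn (20.4 FPKM) were below the next lowest libraries of that window, with 39.5 and 22.5 FPKM.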

How the results depend on the processing

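With 1 library per age, age and library cannot be told apart, and depth is unknown. No paired analysis was possible because the ages carry no replicate numbers. Of 1820 values of single members under alternatives, 1756 kept their direction, 111 of them with the call lost and 43 with a call gained, and the 64 that turned were called in neither fit. The 111 do not stand against 1820, because only a value called in the main fit could lose its call. That fit called 9 members after birth, 0 into W3 to W8 and 16 fetal slopes. With median-ratio scaling 5 of the 9 and 14 of the 16 stayed called. Without E13.5, 8 of the 9 and 8 of the 16 did. Causes were not tested.

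Sterol members called lower after birth (5) numbered 1 with median-ratio scaling, quantile normalization, the fixed sum, or without D1 and W8 (chosen after seeing the data), 2 in the RNA phases, 3 with a pseudocount of 0.1 or no FPKM limit, and 1 to 5 with a library left out. Ebp was called higher, 1 against 0, with those 3 scalings, an FPKM of at least 5, the first entry, the mean-dependent prior and the phases, and 0 to 1 were with a library left out. Sterol members called in the F test numbered 3 with the fixed sum and 2 without D1 and W8. Into W3 to W8, 2 sterol and 1 fatty acid members were called higher with median-ratio scaling and 1 and 2 with quantile normalization. Lower calls there numbered 2 (fatty acid) in the phases, and 0 to 1 (sterol) and 0 to 2 (fatty acid) with a library left out. Fetal slopes called higher were 8 of the sterol branch with no FPKM limit (8 to 13 with a library left out) and 2 of the fatty acid branch with median-ratio scaling or an FPKM of at least 5 (0 to 1 left out). Slopes called lower were 1 (sterol) with quantile normalization, the fixed sum, an FPKM of at least 5 or the mean-dependent prior, and 0 (fatty acid) with median-ratio scaling, 1 with no limit and 0 to 1 left out. From W2 to W3, 20 sterol and 4 fatty acid members were past 1.3-fold, and 11 and 2 from W1, or 6 and 0 at W6.

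With median-ratio scaling, the change after birth became positive for Pmvk (0.078), Mvd (0.14), Fdps (0.033), Tm7sf2 (0.066), Msmo1 (0.095), Hsd17b7 (0.14), Srebf1 (0.14) and Elovl6 (0.030). The change into W3 to W8 became positive for Acat2 (0.039), Mvk (0.35), Pmvk (0.042), Mvd (0.36), Sqle (0.56), Lss (0.43), Tm7sf2 (0.22), Nsdhl (0.28), Hsd17b7 (0.065), Srebf1 (0.18), Srebf2 (0.32), Stard4 (0.35), Acaca (0.020), Acly (0.26) and Scd2 (0.48). With quantile normalization, the first became positive for Mvd (0.038), Hsd17b7 (0.026) and Srebf1 (0.048), and the second for Mvk (0.064), Mvd (0.093), Sqle (0.21), Lss (0.33), Tm7sf2 (0.16), Nsdhl (0.19), Hsd17b7 (0.19), Stard4 (0.29), Acaca (0.14) and Scd2 (0.14). With the fixed sum, Sqle turned to 0.040 into W3 to W8, and the slopes of Dhcr7 and Srebf2 to -0.017 and -0.012. In the RNA phases, Msmo1 (0.094) and Insig1 (0.17) turned in the first contrast and Fdps (-0.059) in the second. In these phases the Insig1 to Insig2 ratio changed by -0.31, which no longer passed at 0.05, and then by -0.089. Without D1 and W8, Mvk (0.090), Sqle (0.082) and Scd2 (0.075) turned in the second.

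With a library left out, changes into W3 to W8 ranged from -0.15 to 0.26 for Fdps, -0.22 to 0.099 for Sqle, -0.026 to 0.35 for Cyp51, -0.10 to 0.18 for Sc5d, -0.081 to 0.24 for Dhcr7, -0.37 to 0.0036 for Stard4 and -0.39 to 0.096 for Scd2. Hsd17b7 ranged from -0.23 to 0.076 after birth, the slopes of Dhcr7 and Srebf2 from -0.012 to 0.040 and from -0.0049 to 0.030, and the first Insig1 to Insig2 difference from -0.81 to -0.58.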
